A study of Mus musculus with 12 samples.

Results

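The genes described here are those whose RNA moved the same way, relative to M0 cells, in Kupffer cells given lipopolysaccharide (LPS) and in Kupffer cells given interleukin 4 (IL-4). A probe was a member when all 4 LPS and IL-4 arrays lay above both M0 arrays, or all 4 lay below both, and its detection p was under 0.05 on at least 2 of these 6 arrays. Of 25697 probes on the array, 12371 met the detection condition, and 3301 of these were members, 1418 above M0 and 1883 below it. The members above M0 (11.5% of kept probes) belonged to 1145 genes with a symbol and those below M0 (15.2%) to 1579.

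Kupffer cells, the macrophages resident in liver sinusoids, were taken from male C57BL/6 mice aged 8 weeks by collagenase perfusion and Percoll centrifugation, and were cultured. Each of the 3 groups used here has 2 bead arrays, with LPS at 10 ng/ml for 24 h, with IL-4 at 20 ng/ml for 24 h, and with no named agent (M0). All animals share the strain, and no allele or transgene is named. The labels give no culture time for M0, so treatment and time in culture cannot be told apart in any comparison with M0. The other 6 arrays of the series, with SR3335, SR1078 or DMSO vehicle for 24 h, did not enter the rule. Nothing in the labels says that the arrays of a group come from separate mice or cultures, so the p values measure the spread between these arrays only, which may be technical.

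LPS, a component of the outer membrane of Gram-negative bacteria, acts on macrophages through Toll-like receptor 4, which activates NF-kB, AP-1 and interferon-regulatory factors. IL-4, a cytokine of type 2 immunity, acts through the IL-4 receptor alpha chain and the transcription factor STAT6. The programmes they start are usually described as opposed poles of macrophage activation, classical (M1) and alternative (M2). Arginine metabolism is a textbook point of contrast, with nitric oxide synthase 2 (Nos2) assigned to the first and arginase 1 (Arg1) to the second.

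Of the Kupffer cell markers Clec4f, Vsig4, Timd4, Adgre1, Marco and C1qa, each was detected on all 6 arrays, and Cd5l was detected on none. No probe carried the symbol Csf1r. Clec4f was a member above M0, by 0.28 log2 with LPS and 0.27 with IL-4, and the other detected markers were not members. Vsig4 differed from M0 by -1.76 with LPS and 0.41 with IL-4, C1qa by -1.14 and 0.09, and Timd4 by -0.27 and 0.15. Adgre1 differed by 0.19 and -0.42, and Marco by 0.35 and -0.16. Between 11474 and 11806 probes were detected per array. Replicate arrays correlated across the kept probes at r = 0.9937 for LPS, 0.9901 for IL-4 and 0.9944 for M0. The median standard error (SE) of the treated minus M0 difference was 0.116 on the log2 scale.

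Promoters of genes that moved together under both agents are shown first, because the agents signal through different transcription factors. RefSeq promoters (build GRCm38.p6, 250 bases before to 50 after a start) were matched for 11 of the 14 genes with the largest shared rise, all but Slc7a2, Arg1 and Ccl7, and for 12 of the 14 with the largest shared fall, all but Sdc2 and Tnni2. They were searched on both strands for TTCNNNNGAA (the spacing STAT6 prefers), TTCNNNGAA (the general STAT spacing), TGANTCA (AP-1) and the NF-kB motif. Of 32544 mouse promoters of this length, 6.98% held the first, 8.33% the second, 7.79% the third and 8.49% the fourth. Gstt4 (chr10:75822494-75822793, minus strand) had an NF-kB match starting 10 bases before the start, and the first of 5 listed starts of Sphk1 (chr11:116530850-116531149, plus strand) had one 91 bases before it. AA467197 (chr2:122637637-122637936, plus strand) had an AP-1 match 73 bases before the start. The first of 2 listed starts of Tnfsf13b (chr8:10006217-10006516, plus strand), which fell, had the STAT6 spacing 44 bases before the start and an AP-1 match downstream of it. Capitals mark the matches.
Gstt4: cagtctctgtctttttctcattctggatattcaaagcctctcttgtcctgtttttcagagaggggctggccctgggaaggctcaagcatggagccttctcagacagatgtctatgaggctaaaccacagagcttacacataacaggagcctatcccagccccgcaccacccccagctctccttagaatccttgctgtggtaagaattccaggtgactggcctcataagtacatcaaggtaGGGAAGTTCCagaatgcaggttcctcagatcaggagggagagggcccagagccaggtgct
Sphk1: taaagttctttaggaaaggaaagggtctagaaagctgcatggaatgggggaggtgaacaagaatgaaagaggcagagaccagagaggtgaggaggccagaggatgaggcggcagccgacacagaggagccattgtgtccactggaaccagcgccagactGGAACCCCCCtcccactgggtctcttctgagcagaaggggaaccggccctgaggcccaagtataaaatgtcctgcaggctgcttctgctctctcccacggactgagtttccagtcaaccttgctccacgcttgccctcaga
AA467197: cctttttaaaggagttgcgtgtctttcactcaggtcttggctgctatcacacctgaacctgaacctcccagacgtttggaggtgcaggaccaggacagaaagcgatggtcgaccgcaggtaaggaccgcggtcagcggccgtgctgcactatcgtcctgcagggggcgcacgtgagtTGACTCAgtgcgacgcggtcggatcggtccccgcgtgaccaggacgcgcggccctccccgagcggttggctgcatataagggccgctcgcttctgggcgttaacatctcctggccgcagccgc
Tnfsf13b: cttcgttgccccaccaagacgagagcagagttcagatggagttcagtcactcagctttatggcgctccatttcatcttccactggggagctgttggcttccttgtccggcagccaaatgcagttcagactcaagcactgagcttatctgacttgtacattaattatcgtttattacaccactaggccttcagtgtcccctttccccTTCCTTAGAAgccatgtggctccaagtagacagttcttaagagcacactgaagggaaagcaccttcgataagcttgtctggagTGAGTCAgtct

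Among the 11 raised genes with a promoter, 2 held either STAT spacing, 4 the NF-kB motif and 4 the AP-1 motif in at least 1 of 20 starts. Among the 12 lowered genes, 4 held a STAT spacing, 1 the NF-kB motif and 2 the AP-1 motif in at least 1 of 15 starts. Several starts of a gene are counted together here, while the shares above are per promoter, and matches of different motifs may share bases. The matches are descriptions of these letters and not binding sites.

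The gene with the largest shared change was Slc7a2, which encodes the cationic amino acid transporter CAT2 that imports arginine. Its normalized log2 signal was 13.43 and 13.48 with LPS, 13.89 and 13.51 with IL-4, and 9.68 and 9.88 in M0. The 4 treated arrays lay close together and far above both M0 arrays. The rise was 12.8-fold with LPS and 15.2-fold with IL-4, and the mean of both treatments differed from M0 by 3.80 ± 0.14 log2 (SE, n = 4 treated arrays and 2 M0 arrays; limma, adjusted p = 0.00171). The difference between LPS and IL-4 was -0.25 log2 with an unadjusted 95% interval of -0.64 to 0.14, and a second Slc7a2 probe rose by 3.86 with LPS and 4.20 with IL-4.

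Arg1, the arginase that splits arginine into ornithine and urea, had a log2 signal of 14.24 and 14.27 with LPS, 14.76 and 14.84 with IL-4, and 11.57 and 11.83 in M0. Both LPS arrays were thus well above M0, although below both IL-4 arrays. The rise was 5.89-fold with LPS and 8.57-fold with IL-4 (treated minus M0 2.83 ± 0.10 log2, limma, adjusted p = 0.00171). The LPS signal was lower than the IL-4 signal by more than the replicate spread, with a difference of -0.54 log2 (limma, adjusted p = 0.0264).

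Ccl7, a chemokine that attracts monocytes, had a log2 signal of 13.42 and 13.72 with LPS, 14.19 and 13.85 with IL-4, and 12.04 and 11.92 in M0. The groups of treated arrays did not overlap with M0. Ccl7 rose 3.01-fold with LPS and 4.11-fold with IL-4 (treated minus M0 1.81 ± 0.14 log2, limma, adjusted p = 0.00479). Its LPS minus IL-4 difference did not pass the test, with a 95% interval of -0.86 to -0.04 before adjustment.

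Across the members most changes were small. The median rise of the members above M0 was 0.41 log2 with LPS and 0.35 with IL-4, and the median of the members below M0 was -0.38 with LPS and -0.33 with IL-4, against -0.01 and -0.02 over all kept probes. Both changes were at least 2-fold for 36 probes above M0 (29 genes) and 27 below it (23 genes). Both were under 1.5-fold for 841 and 1202. The gap between the nearest treated and M0 arrays was under 0.1 log2 for 1452 members and over 1 for 29. Gfpt2, Krt15 and Cfi lay just inside the rule with gaps under 0.001 log2, and Mat2b, Fth1 and Tra2a just outside it with a gap of 0.

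**Figure D1:**
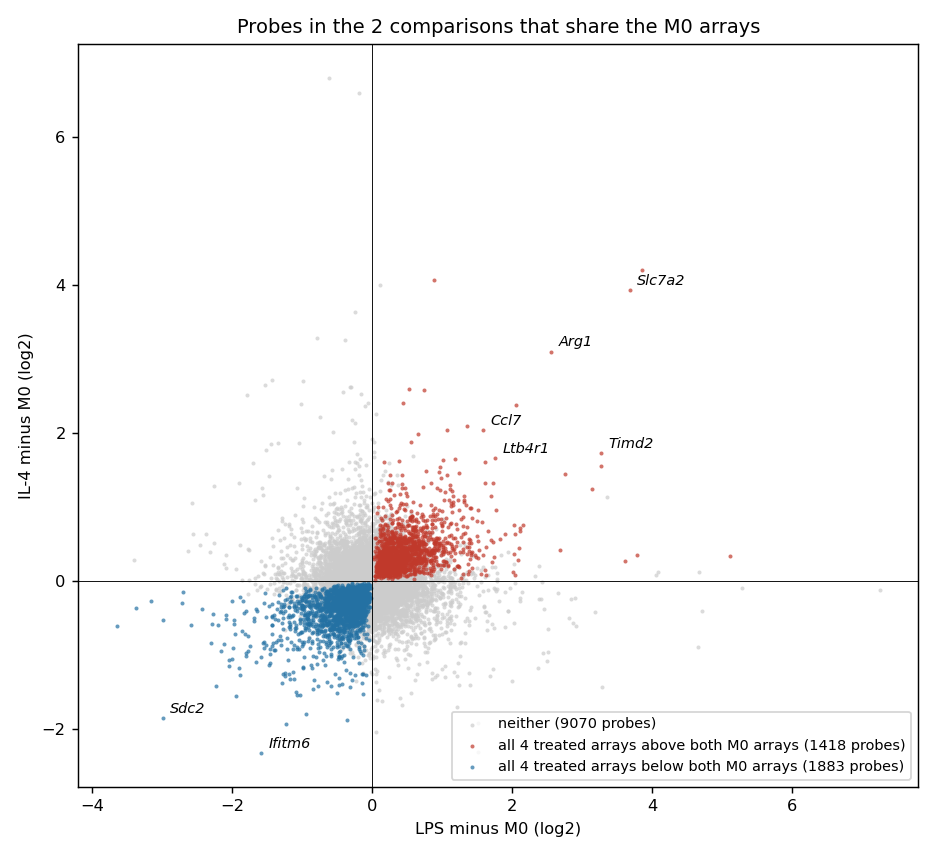
Each point is 1 of 12371 kept probes, with its LPS minus M0 difference on the horizontal axis and its IL-4 minus M0 difference on the vertical axis, both in log2. Members above M0 are red (1418) and members below it blue (1883). The 2 axes share the M0 arrays, so the tilt of the cloud is not a result. Slc7a2 and Arg1 lie far from the rest at the upper right and Sdc2 and Ifitm6 at the lower left.

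Adjusted p values come from limma over all 12371 kept probes, and passing means an adjusted p under 0.05. Members passing treated minus M0 numbered 425 above M0 and 545 below it, where 4.7% of all kept probes passed higher and 5.21% passed lower. The members were chosen on the same arrays, so these counts describe them and nothing is read from them. Members above M0 that passed LPS minus M0 numbered 543 (9.51% of all kept probes passed higher), and 201 passed IL-4 minus M0 (3.44%). Members below M0 that passed numbered 653 for LPS (10.5% passed lower) and 270 for IL-4 (3.77%). These calls lean on both M0 arrays. In all, 9.9% of kept probes passed treated minus M0, 20% LPS minus M0 and 7.2% IL-4 minus M0. Without either M0 array, 7 probes passed treated minus M0, against 1225 with both, while Slc7a2 and Arg1 passed under every alternative run.

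Another 11 genes made up the rest of the 14 with the largest shared rise. Timd2, a receptor for ferritin in the mouse, had a log2 signal of 8.14 and 8.26 with LPS, 6.90 and 6.42 with IL-4, and 4.86 and 5.02 in M0, where it was undetected. With LPS it was higher by at least 5.84-fold and with IL-4 by at least 2-fold, measured against the lowest signal detected on the M0 arrays (limma, adjusted p = 0.00341). Its LPS arrays were above its IL-4 arrays (adjusted p = 0.0036).

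Ltb4r1, the high-affinity receptor for the lipid attractant leukotriene B4, had 8.56 and 8.55 with LPS, 8.64 and 8.27 with IL-4, and 6.78 and 6.82 in M0. It rose 3.38-fold with LPS and 3.15-fold with IL-4 (limma, adjusted p = 0.00447), and the interval of the difference between the agents was -0.25 to 0.46 log2. Tarm1, an activating receptor of myeloid cells, had 7.53 and 8.13 with LPS, 6.25 and 5.61 with IL-4, and 4.81 and 4.59 in M0, where it was undetected. Compared with M0, the Tarm1 signal on the LPS arrays was greater by a factor of 4.51 or more. For IL-4, where Tarm1 was detected on 1 of 2 arrays, that factor was 1.21 or more. The IL-4 minus M0 difference alone did not pass (limma, adjusted p = 0.061).

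Gstt4, a glutathione S-transferase of the theta class whose promoter is printed above, had 10.41 and 10.53 with LPS, 8.76 and 8.75 with IL-4, and 7.28 and 7.12 in M0. AA467197, also called Nmes1, had 12.05 and 12.09 with LPS, 10.64 and 10.88 with IL-4, and 9.37 and 9.27 in M0. For both genes the 3 groups lay apart, with LPS highest and M0 lowest. Gstt4 rose 9.66-fold with LPS and 2.94-fold with IL-4, and AA467197 6.75-fold and 2.72-fold. LPS exceeded IL-4 for both (limma, adjusted p = 0.00059 and 0.0018).

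Ccl12, a mouse monocyte attractant related to Ccl7, had 12.72 and 13 with LPS, 12.66 and 12.49 with IL-4, and 11.27 and 11.23 in M0. It rose 3.06-fold with LPS and 2.51-fold with IL-4 (adjusted p = 0.00479). Ms4a8a, a membrane protein of the MS4A family, had 11.78 and 11.69 with LPS, 12.45 and 11.96 with IL-4, and 10.59 and 10.51 in M0, a rise of 2.27-fold and 3.15-fold. Both LPS arrays lay above both IL-4 arrays for Ccl12 and below them for Ms4a8a, and neither difference passed the test (adjusted p = 0.17 and 0.099).

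The rest of the 14 were Hspa1a, Upp1, Sphk1 and Slc6a13, all with treated arrays apart from M0. Hspa1a, an inducible heat shock chaperone, rose 3.23-fold with LPS and 2.22-fold with IL-4, and since Hspa1b is nearly identical the 2 copies cannot be told apart by one probe. Upp1, which cleaves uridine, rose 2.21-fold with LPS and 2.32-fold with IL-4, and both of its other kept probes were also above M0. Sphk1, which makes sphingosine 1-phosphate, rose 2.49-fold and 2.21-fold. Slc6a13, a transporter of GABA and related amino acids, rose 2.17-fold and 2.46-fold. Upp1, Sphk1 and Slc6a13 had no difference between the agents that passed the test, with adjusted p of 0.7, 0.43 and 0.36.

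**Figure D2:**
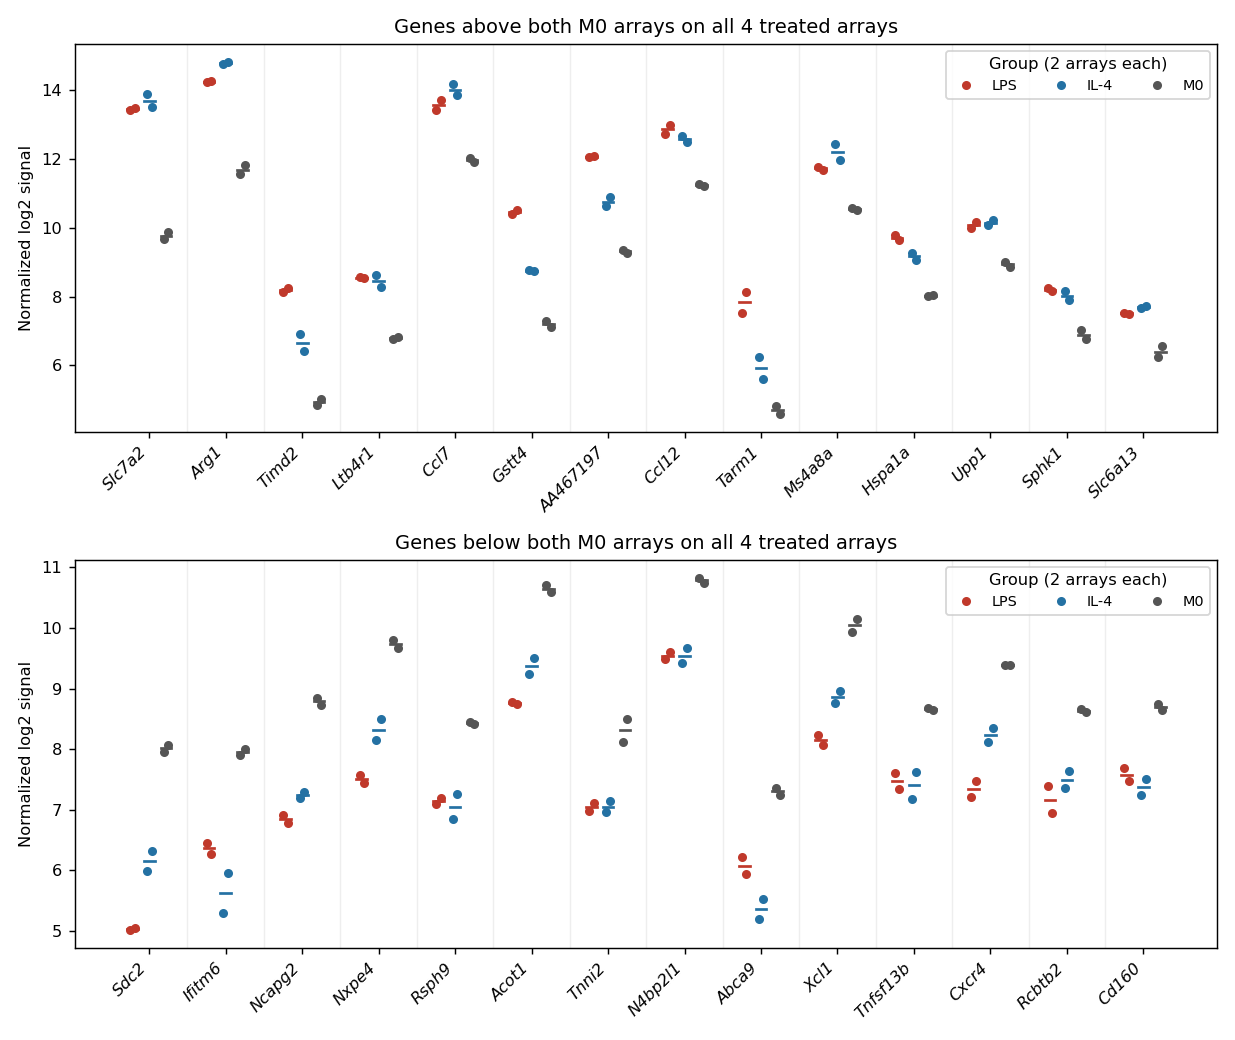
Normalized log2 signal on each of the 2 LPS, 2 IL-4 and 2 M0 arrays, with a bar at each group mean, for the 14 genes with the largest shared rise (top) and the 14 with the largest shared fall (bottom). Slc7a2 stands 3.80 log2 above M0. Timd2, Gstt4, AA467197 and Tarm1 run in steps from LPS through IL-4 to M0.

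The largest shared fall was that of Sdc2, a heparan sulfate proteoglycan of the cell surface. Its log2 signal was 5.01 and 5.05 with LPS, 5.99 and 6.32 with IL-4, and 7.96 and 8.07 in M0. It was undetected on both LPS arrays and at least 5-fold lower there than in M0, and 3.62-fold lower with IL-4 (treated minus M0 -2.42 ± 0.12 log2, limma, adjusted p = 0.00261). The LPS arrays lay below the IL-4 arrays (adjusted p = 0.004).

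Cxcr4, the receptor of the chemokine Cxcl12, had 7.22 and 7.47 with LPS, 8.11 and 8.34 with IL-4, and 9.38 and 9.38 in M0. It was 4.11-fold lower with LPS and 2.23-fold lower with IL-4 (limma, adjusted p = 0.0046), and the agents differed from each other (adjusted p = 0.0084). Tnfsf13b, the B cell survival factor BAFF whose promoter is printed above, had 7.61 and 7.35 with LPS, 7.17 and 7.63 with IL-4, and 8.67 and 8.65 in M0. It was 2.27-fold lower with LPS and 2.4-fold lower with IL-4 (adjusted p = 0.0126), and its LPS and IL-4 arrays overlapped.

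Ifitm6, a member of the interferon-induced transmembrane family, had 6.45 and 6.27 with LPS, 5.29 and 5.95 with IL-4, and 7.90 and 8.00 in M0. It was 3-fold lower with LPS and 5.02-fold lower with IL-4 (adjusted p = 0.00735). Ncapg2, a subunit of condensin II, was 3.85-fold and 2.93-fold lower. Abca9, a transporter of the ABC family, was 2.34-fold lower with LPS and, undetected with IL-4, at least 3.23-fold lower there. Acot1, an acyl-CoA thioesterase with a close copy in Acot2, was 3.69-fold lower with LPS and 2.42-fold lower with IL-4. Another kept probe of Abca9 and another of Acot1 lay on neither side of M0.

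Several shared falls were nearly the same size under both agents. N4bp2l1 had 9.49 and 9.60 with LPS, 9.42 and 9.67 with IL-4, and 10.83 and 10.75 in M0. It was 2.37-fold lower with LPS and 2.38-fold lower with IL-4, and the interval of the difference between them was -0.30 to 0.31 log2. Tnni2, the fast skeletal isoform of troponin I, was 2.41-fold and 2.4-fold lower, with an interval of -0.40 to 0.39. Rsph9, a protein of the radial spokes of cilia, was 2.44-fold and 2.61-fold lower, with an interval of -0.29 to 0.48. The remaining genes of the 14 were Nxpe4 (4.7-fold lower with LPS and 2.67-fold lower with IL-4), Rcbtb2 (2.77-fold and 2.2-fold), and Xcl1 and Cd160, which are described with the lymphocyte markers.

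Gene lists were then counted with 1 probe per gene. Of 9358 genes, 4.57% passed treated minus M0 as higher and 5.73% as lower, with a median difference of -0.03 log2. This comparison averages both agents, so a gene can pass through 1 of them, and the count of passing genes whose 4 treated arrays were also clear of M0 is given beside it (among all genes 303, 3.24%, as higher and 459, 4.9%, as lower). Without adjustment, 12% of all genes had a p under 0.05 as higher and 16.1% as lower.

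Arginine handling had 17 measured genes, of which 5 rose and 1 fell, and 4 of the 5 were clear of M0 on all 4 arrays. Slc7a2 and Arg1 led the list. Nos2, which makes nitric oxide from arginine, had a log2 signal of 6.86 and 6.72 with LPS, 5.73 and 5.34 with IL-4, and 4.99 and 4.95 in M0, where it was undetected. Nos2 was at least 2.19-fold higher with LPS, and its IL-4 minus M0 difference did not pass (adjusted p = 0.086). Slc3a2, the heavy chain shared by several amino acid transporters, rose 1.72-fold with LPS and had a value of 1.51-fold with IL-4 that did not pass. Slc7a3, another cationic amino acid transporter, was counted in the amino acid stress list and was undetected on all 4 treated arrays, at least 1.49-fold lower than in M0 (adjusted p = 0.02). The median difference of the arginine list was 0.13 log2.

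Chemokine ligands had 21 measured genes, of which 10 rose and 2 fell, and 7 of the 10 were clear of M0. The list's median was 0.42 log2. After Ccl7 and Ccl12, Pf4 (Cxcl4) and Ccl2, a major monocyte attractant, had the largest shared rises. Pf4 had 10.18 and 10.34 with LPS, 10.47 and 10.78 with IL-4, and 9.26 and 9.12 in M0 (adjusted p = 0.00711). Ccl2 had 11.73 and 11.88 with LPS, 12.54 and 12.11 with IL-4, and 10.87 and 10.82 in M0 (adjusted p = 0.0102). The treated arrays of both genes lay above M0. Of 7 chemokine receptors none rose by limma, also none at an unadjusted p under 0.05, and Cxcr4 fell.

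Among 30 cytokines and their receptors 7 rose and 4 fell, with 5 and 4 clear of M0. Il10, which restrains inflammation, had 9.15 and 9.16 with LPS, 8.25 and 8.42 with IL-4, and 7.51 and 7.25 in M0. It rose 3.41-fold with LPS and 1.94-fold with IL-4 (adjusted p = 0.00488), more with LPS (adjusted p = 0.0088). Il1rap, the accessory chain of the interleukin 1 receptor, was 2.66-fold higher with LPS, and its 1.97-fold value with IL-4 did not pass alone (adjusted p = 0.062). The 4 that fell were receptor chains, Tgfbr1, Tgfbr2, Il13ra1 and Ifngr1.

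Tgfbr1, the type I receptor for transforming growth factor beta, had 12.51 and 12.54 with LPS, 12.74 and 12.90 with IL-4, and 13.77 and 13.73 in M0. It was 2.33-fold lower with LPS and 1.9-fold lower with IL-4 (adjusted p = 0.00499), and both of its other kept probes were also below M0. Il13ra1, which pairs with the IL-4 receptor alpha chain, had 10.20 and 10.18 with LPS, 9.94 and 10.11 with IL-4, and 10.91 and 10.80 in M0 (adjusted p = 0.0121). The fall was 1.58-fold with LPS and 1.78-fold with IL-4.

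In pattern recognition and its signalling the counts were smaller. Of 20 Toll-like receptors and adaptors, 1 rose and 1 fell, both clear of M0. Tlr1 had 10.35 and 10.53 with LPS, 10.83 and 10.43 with IL-4, and 9.72 and 9.72 in M0 (adjusted p = 0.0246). Tlr2, with which Tlr1 pairs to sense bacterial lipoproteins, was 1.42-fold lower with LPS and 2.86-fold lower with IL-4 (adjusted p = 0.00762). The 2 partners thus moved in opposite directions relative to M0.

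Of 21 genes of the NF-kB pathway and its feedback, 4 rose and 1 fell, but 1 of the 4 risers was clear of M0. This was Zc3h12a, the RNase Regnase-1, which rose 2.1-fold with LPS and had a 1.44-fold value with IL-4 that did not pass (adjusted p = 0.056). Tnfaip2 fell 1.6-fold with LPS and 1.68-fold with IL-4, and both of its other probes were also below M0. By agent, 7 of the 21 passed as higher and 1 as lower with LPS, and none as higher and 3 as lower with IL-4. The medians of this list were 0.24 log2 with LPS and -0.30 with IL-4, on opposite sides of M0. LPS was higher than IL-4 for 12 of the 21 and lower for 1. Among 22 STAT factors and feedback genes, 2 rose and none fell (3 at an unadjusted p under 0.05). Jak2, a kinase of cytokine receptors, rose 1.77-fold with LPS and 1.55-fold with IL-4 (adjusted p = 0.0111).

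Of 38 interferon-stimulated genes 9 rose and 1 fell, 7 of the 9 clear of M0, with a list median of 0.14 log2. By agent, 13 of the 38 passed as higher and none as lower with LPS, and 1 passed as higher and 2 as lower with IL-4. Mx1, an antiviral GTPase, had 9.91 and 9.69 with LPS, 9.56 and 9.07 with IL-4, and 8.83 and 8.58 in M0 (treated minus M0 adjusted p = 0.0375). Its 1.52-fold value with IL-4 did not pass alone (adjusted p = 0.12). Ddx58, the RNA sensor RIG-I, had 1.64-fold with LPS and 1.41-fold with IL-4, of which the second did not pass alone.

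Glycolysis and the hypoxia response had 23 measured genes, of which 7 rose and 1 fell, 6 of the 7 clear of M0. By agent, 12 passed as higher and 3 as lower with LPS, and 3 as higher and 1 as lower with IL-4. The list's median was 0.26 log2. Adm, a hypoxia-induced vasodilator peptide, had 7.75 and 7.62 with LPS, 7.04 and 7.22 with IL-4, and 6.10 and 6.26 in M0. It rose 2.85-fold and 1.94-fold (adjusted p = 0.0054). Hif1a, the oxygen-regulated transcription factor, rose 2.56-fold with LPS, and its 1.38-fold value with IL-4 did not pass (adjusted p = 0.22). The glucose transporter Slc2a1 rose 1.93-fold with LPS, while Slc2a3, its relative, fell 2-fold with LPS.

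Matrix proteases and inhibitors had 18 measured genes, of which 7 rose and 3 fell, 4 of the 7 clear of M0, with a median of 0.47 log2. Mmp13, a collagenase, had 14.17 and 14.18 with LPS, 14.57 and 14.88 with IL-4, and 13.39 and 13.52 in M0 (adjusted p = 0.0104). Adam17, the sheddase that frees tumour necrosis factor, was 1.62-fold lower with LPS and 1.75-fold lower with IL-4 (adjusted p = 0.0274). Of 18 integrins and adhesion molecules 5 rose and 1 fell, 3 of the 5 clear of M0. Itgb2, the common beta chain of leukocyte integrins, rose 1.53-fold with LPS and was 1.53-fold higher with IL-4, where it did not pass alone. Pecam1 rose 1.51-fold with LPS and 1.77-fold with IL-4.

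Of 16 costimulatory and checkpoint genes 4 rose and 4 fell, with 4 and 2 clear of M0. Pdcd1lg2, the ligand PD-L2, had 5.93 and 6.20 with LPS, 9.70 and 8.79 with IL-4, and 5.16 and 5.19 in M0, where it was undetected. With IL-4 it was at least 12-fold higher, with LPS at least 1.33-fold, and LPS minus M0 alone did not pass (adjusted p = 0.091). Slamf1, a self-ligand receptor of immune cells, had 9.67 and 9.90 with LPS, 6.17 and 6.53 with IL-4, and 5.85 and 6.15 in M0. It rose 13.8-fold with LPS, and its 1.27-fold value with IL-4 did not pass (adjusted p = 0.27), and its other kept probe was not a member. Pdcd1lg2 and Slamf1 met the membership rule although nearly all of their change came with 1 agent. Cd276, the checkpoint molecule B7-H3, was 1.8-fold lower with LPS and 2.02-fold lower with IL-4.

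Of 31 genes of the unfolded protein and amino acid stress responses, 6 rose and 3 fell, with 4 and 2 clear of M0. Creld2, a chaperone-like protein of the endoplasmic reticulum, rose 1.82-fold with LPS and 1.87-fold with IL-4 (adjusted p = 0.0148). Of 23 immediate early genes and MAPK phosphatases 5 rose and none fell (4 at an unadjusted p under 0.05), 2 clear of M0, among them Ier3, which rose 1.53-fold with LPS and 1.56-fold with IL-4. Of 16 NRF2 targets 3 rose and none fell (2 at an unadjusted p under 0.05), 2 clear of M0. With LPS alone 8 of the 16 passed as higher and none as lower, and with IL-4 alone none passed as higher and 3 as lower. Their median differences from M0 were 0.53 log2 with LPS and -0.26 with IL-4, so the agents stood on opposite sides of M0. In the circadian clock list of 14, Nfil3 rose 1.97-fold with LPS and 2.92-fold with IL-4, and Dbp, which binds the same DNA sites, was 1.19-fold lower with LPS, not past the test alone, and 2.41-fold lower with IL-4.

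**Figure D3:**
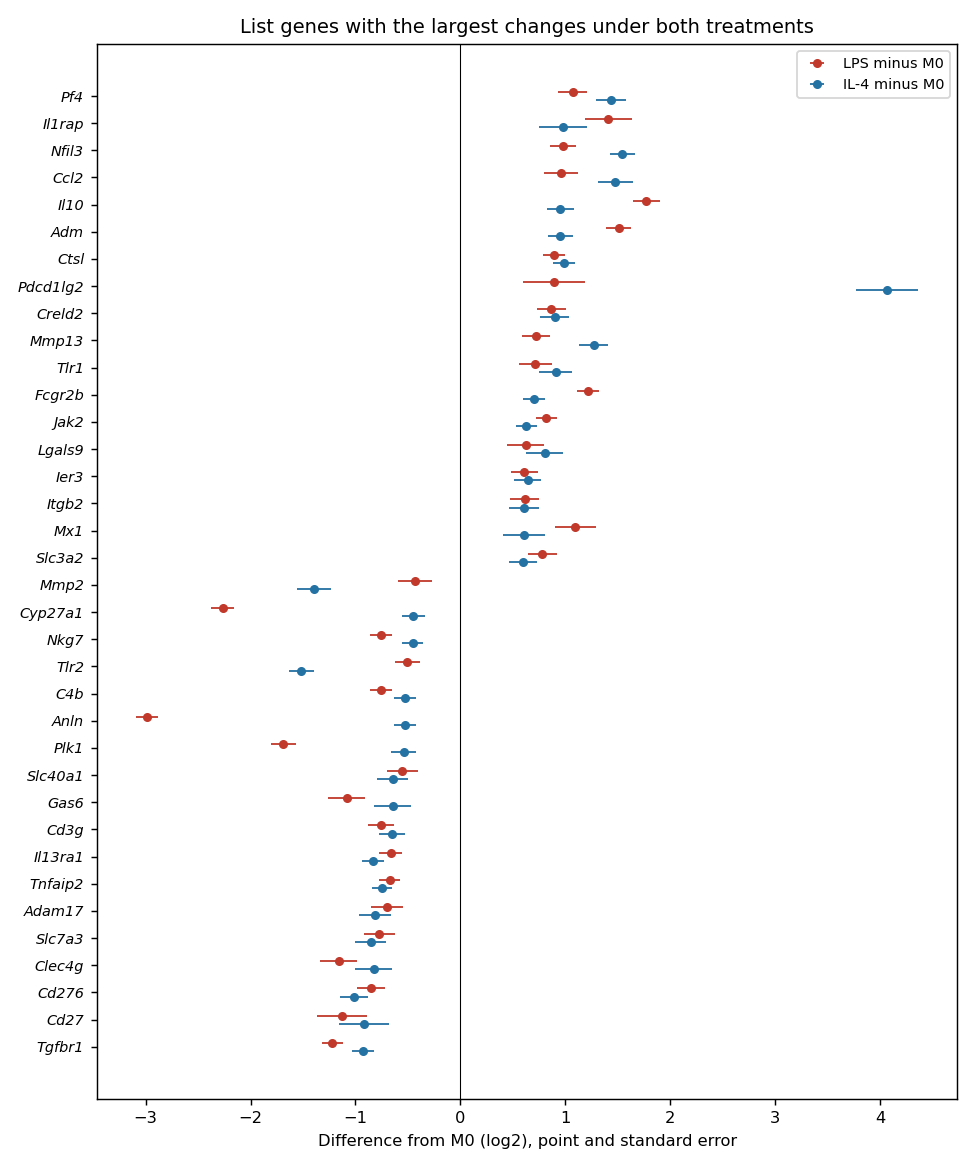
LPS minus M0 (red) and IL-4 minus M0 (blue) in log2, point and standard error, for 36 list genes, the 18 with the largest smaller-of-both rise and the 18 with the largest smaller-of-both fall among members that passed treated minus M0, leaving out the genes of the plot of levels. Pdcd1lg2 is farther from M0 with IL-4, Cyp27a1 and Anln with LPS, and Ier3, Itgb2 and Creld2 have nearly equal values.

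On the side of the falls, lipid handling and LXR targets had 20 measured genes, of which none rose by limma (1 at an unadjusted p under 0.05) and 9 fell, with a list median of -0.36 log2. Of the 9, 3 were below M0 on all 4 treated arrays, namely Abca9, Acot1 and Cyp27a1. Cyp27a1, the sterol 27-hydroxylase, had 8.50 and 8.58 with LPS, 10.46 and 10.26 with IL-4, and 10.79 and 10.82 in M0. It fell 4.81-fold with LPS, and its 1.36-fold lower value with IL-4 did not pass (adjusted p = 0.074). By agent, 2 of the 20 passed as higher and 12 as lower with LPS, and 1 passed as higher and 3 as lower with IL-4. The median of the 20 was -0.77 log2 with LPS and 0.02 with IL-4. Of 18 genes of cholesterol and fatty acid synthesis 1 rose and 4 fell. Sqle and Cyp51, 2 enzymes of sterol synthesis, were 2.69-fold and 1.8-fold lower with LPS, and neither passed with IL-4.

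Of 29 genes of DNA replication and mitosis none rose (1 at an unadjusted p under 0.05) and 5 fell, 4 of them clear of M0, with a median of -0.18 log2. Plk1, a mitotic kinase, had 6.31 and 6.20 with LPS, 7.40 and 7.41 with IL-4, and 7.82 and 8.07 in M0 (adjusted p = 0.00662). Anln, a protein of the cleavage furrow, was undetected with LPS and at least 4.44-fold lower there, and 1.44-fold lower with IL-4 (IL-4 minus M0 adjusted p = 0.046). Both genes were lower with LPS than with IL-4 (adjusted p = 0.0026 and 0.00022). By agent, none of the 29 passed as higher and 13 as lower with LPS, and 2 passed as higher and 1 as lower with IL-4. The median of the 29 was -0.48 log2 with LPS and -0.045 with IL-4.

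Of 29 cathepsins and lysosomal proteins 1 rose and 4 fell. Ctsl, a cysteine protease, rose 1.86-fold with LPS and 1.99-fold with IL-4 (adjusted p = 0.00711). The lysosomal glycosidases Hexa, Gusb and Man2b1 fell 2.33-fold, 2-fold and 2.02-fold with LPS, and none of the 3 passed with IL-4. Both other kept probes of Gusb lay on neither side of M0. Of 16 scavenger and apoptotic cell receptors and bridging molecules 1 rose and 3 fell, with Gas6 and Axl, a ligand and its receptor, clear of M0. Gas6 was 2.12-fold lower with LPS and Axl 2.26-fold lower, and neither passed with IL-4.

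Of 22 Kupffer cell identity genes 3 rose and 4 fell, with 2 and 2 clear of M0. By agent, 4 passed as higher and 7 as lower with LPS, and 4 as higher and 1 as lower with IL-4. The list's median was -0.13 log2 with LPS and 0.27 with IL-4. Id1 rose 1.39-fold with LPS and 2.38-fold with IL-4, while Id3, a relative among the inhibitors of DNA binding, was 1.48-fold lower with LPS and had a 1.34-fold lower value with IL-4 that did not pass. Slc40a1, the iron exporter ferroportin, had 15.01 and 14.80 with LPS, 14.65 and 14.97 with IL-4, and 15.46 and 15.45 in M0 (adjusted p = 0.041). Of 11 MHC class II genes 1 rose and 2 fell. Ciita, the class II transactivator, fell 6.51-fold with LPS, and its 1.11-fold lower value with IL-4 did not pass (adjusted p = 0.57).

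Complement, C-type lectin receptors, Fc receptors, and growth arrest and p53 targets gave mixed or few calls. Of 16 complement genes 3 rose and 3 fell. C4b, which has the close copy C4a, was 1.68-fold lower with LPS and 1.44-fold lower with IL-4. Of 17 C-type lectin receptors 3 rose and 3 fell, with none of the risers clear of M0. Of 8 Fc receptors 1 rose, Fcgr2b, the inhibitory receptor for IgG, by 2.32-fold with LPS and 1.63-fold with IL-4. Of 19 cyclin D, growth arrest and p53 target genes 2 rose and 3 fell.

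No gene passed in either direction among 42 of the respiratory chain and ATP synthase, 22 ribosomal proteins, 23 of ribosome biogenesis, or 7 colony-stimulating factors and their receptors, by limma's treated minus M0 test. At an unadjusted p under 0.05, in the same order of lists, 3, 0, 3 and 2 genes were higher and 1, 2, 1 and 0 lower. Ribosome biogenesis genes had a median of -0.41 log2 with LPS and 0.41 with IL-4, so the agents stood on opposite sides of M0 there. Of the 23, 15 were lower with LPS than with IL-4. By agent, none of the 23 passed as higher and 8 as lower with LPS, and 3 as higher and none as lower with IL-4. Ribosomal proteins also split by agent, with medians of -0.34 log2 with LPS and 0.13 with IL-4. Of the 22, 9 passed as lower and none as higher with LPS, and none passed with IL-4. LPS was lower than IL-4 for 13 of these 22.

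**Figure D4:**
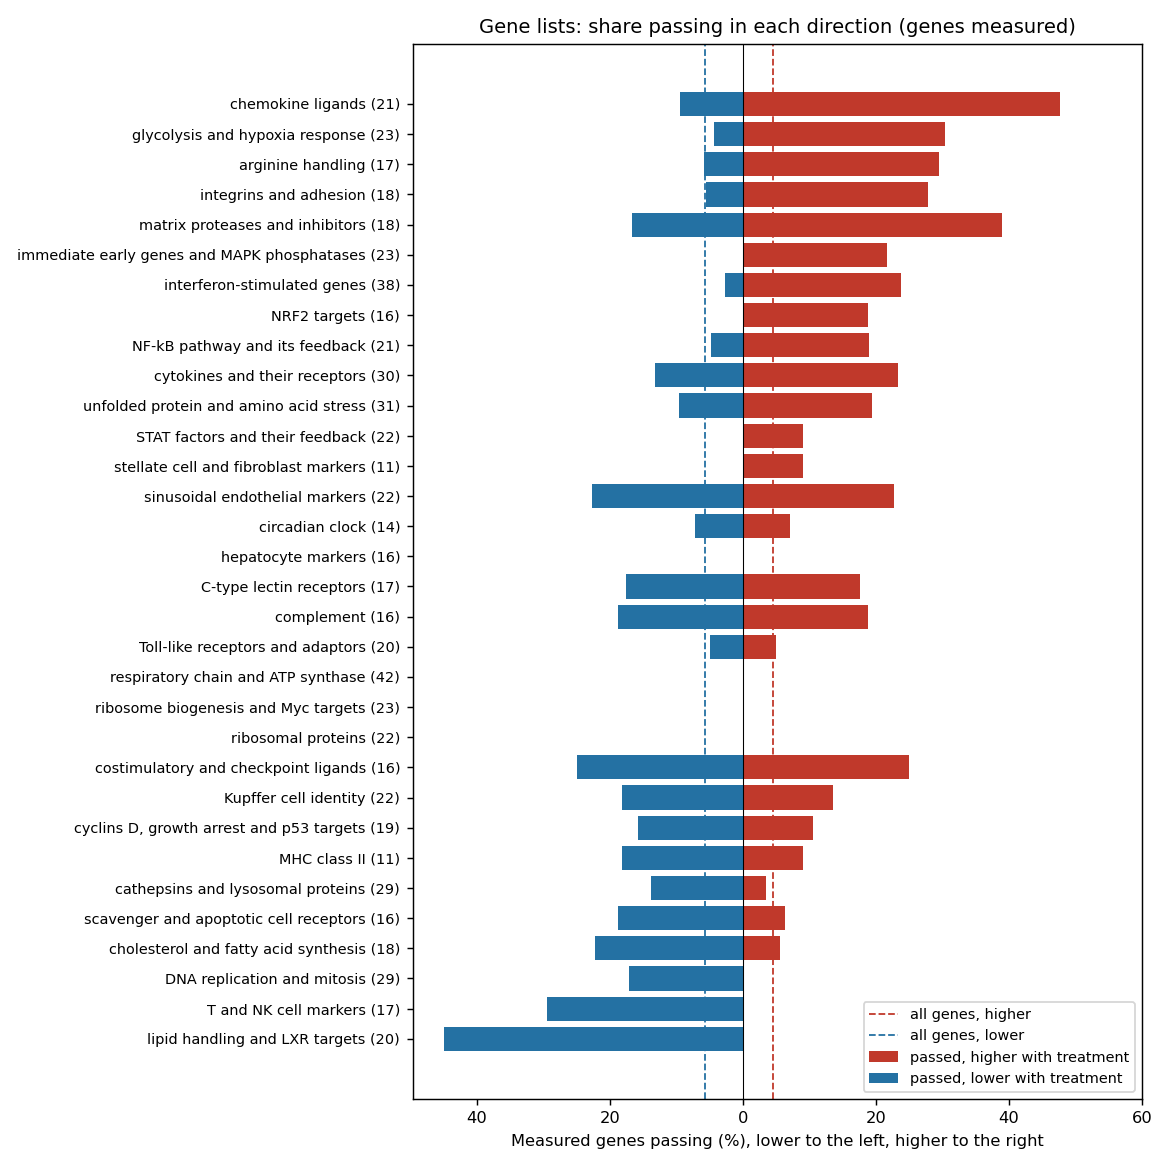
Percent of the measured genes of each list that passed treated minus M0, higher to the right and lower to the left, for 32 lists with at least 10 measured genes (number in brackets). Dashed lines mark the shares among all genes, 4.57% higher and 5.73% lower. Chemokine ligands reach farthest to the right and lipid handling and LXR targets farthest to the left.

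Markers of lymphocytes were among the shared falls. Xcl1, the chemokine lymphotactin made by NK and T cells, had a log2 signal of 8.24 and 8.07 with LPS, 8.76 and 8.96 with IL-4, and 9.94 and 10.15 in M0. Cd160, a receptor of NK and T cells, had 7.68 and 7.48 with LPS, 7.24 and 7.51 with IL-4, and 8.75 and 8.65 in M0. Xcl1 was 3.72-fold lower with LPS and 2.27-fold lower with IL-4 (adjusted p = 0.00468), and Cd160 2.17-fold and 2.5-fold (adjusted p = 0.00711).

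In the list of T and NK cell markers 17 genes were measured, none rose (1 at an unadjusted p under 0.05) and 5 fell, all 5 clear of M0 (Cd3g, Cd27, Klrd1, Nkg7 and Thy1), with a median of -0.27 log2. With LPS alone 1 of the 17 passed as higher and 4 as lower, and with IL-4 alone 1 as higher and 5 as lower. Klrd1 did not pass with LPS (limma, adjusted p = 0.14), and Cd27 and Nkg7 did not pass with IL-4 (adjusted p = 0.079 and 0.059). Cd3g, a chain of the T cell receptor complex, had 9.57 and 9.45 with LPS, 9.48 and 9.74 with IL-4, and 10.24 and 10.28 in M0 (adjusted p = 0.0191). Nkg7, a protein of cytotoxic granules, had 9.83 and 9.74 with LPS, 10.12 and 10.06 with IL-4, and 10.47 and 10.61 in M0 (adjusted p = 0.018). The summed linear signal of the list was 6516 to 6718 with LPS, 5962 to 6345 with IL-4 and 8158 to 8557 in M0. Without its brightest gene, Thy1, the sum was 5233 to 5416 with LPS, 4999 to 5442 with IL-4 and 6657 to 6946 in M0. Cd4, Cd8a, Eomes, Gzma, Gzmb, Ms4a4b, Ncr1 and Skap1 were not detected on enough arrays to be kept. Fewer cells of a type and less RNA per cell cannot be told apart in such bulk samples, and the part of the lymphocyte markers in the other falls was not tested.

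Other marker lists moved less evenly. Of 22 sinusoidal endothelial markers 5 rose and 5 fell, with 4 and 3 clear of M0. With LPS alone 3 of the 22 passed as higher and 8 as lower, and with IL-4 alone 6 as higher and none as lower. Their summed signal was 12879 to 13808 with LPS, 21654 to 21926 with IL-4 and 14430 to 14547 in M0. Clec4g, a lectin of sinusoidal endothelium, had 8.02 and 8.20 with LPS, 8.21 and 8.67 with IL-4, and 9.22 and 9.32 in M0 (limma, adjusted p = 0.0191). Its IL-4 minus M0 difference did not pass alone (adjusted p = 0.0501). Of 16 hepatocyte markers and of 6 B cell markers none passed by limma (2 and 4 at an unadjusted p under 0.05), and Alb, Cps1 and Cyp2e1 were not kept. Of 11 stellate cell and fibroblast markers 1 rose and none fell (1 at an unadjusted p under 0.05). The hepatocyte sum was 8001 to 8558 with LPS, 8145 to 10246 with IL-4 and 8337 to 9058 in M0, and the groups overlapped. Without Trf, the brightest of them, it was 4927 to 5250 with LPS, 3087 to 4259 with IL-4 and 3792 to 4093 in M0. LPS then lay above M0, and IL-4 overlapped it. The B cell sum was 1121 to 1130 with LPS, 1166 to 1216 with IL-4 and 1295 to 1475 in M0. Without its brightest gene, Cd22, it was 428 to 439 with LPS, 517 to 520 with IL-4 and 483 to 540 in M0, so IL-4 then overlapped M0. These sums without 1 gene were chosen after the data were seen.

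Of 9 dendritic cell and monocyte markers 4 rose, of which Plac8 was clear of M0 (2.24-fold higher with LPS, and 1.21-fold with IL-4, which did not pass). By agent, 2 passed as higher and 2 as lower with LPS, and 3 as higher and 1 as lower with IL-4, and the median differences from M0 were -0.11 log2 with LPS and 0.03 with IL-4. Their summed signal was 17561 to 17981 with LPS, 13960 to 14929 with IL-4 and 8628 to 9260 in M0. Plac8 made up most of it, and without Plac8 the sum was 2349 to 2485 with LPS, 5216 to 7097 with IL-4 and 2013 to 2188 in M0. The markers Ccr2, Cx3cr1, Flt3 and Zbtb46 were not kept. Of 7 neutrophil markers 3 rose and 1 fell, and the sum was 13123 to 14436 with LPS, 2597 to 2977 with IL-4 and 2514 to 2535 in M0. Without Csf3r, the brightest of them, it was 10364 to 11827 with LPS, 619 to 630 with IL-4 and 717 to 723 in M0. IL-4 then lay below M0. Mpo, Camp, Ngp and 7 other neutrophil markers were not kept. Of 4 eosinophil, basophil and mast cell markers 2 rose, and the sum was 1682 to 1902 with LPS, 5018 to 5147 with IL-4 and 1055 to 1085 in M0. Without Ear10, the brightest of them, it was 1320 to 1540 with LPS, 548 to 551 with IL-4 and 543 to 647 in M0. IL-4 then overlapped M0. None of the risers of these 2 lists was clear of M0 on all 4 arrays. The summed Kupffer cell identity signal was 178560 to 194740 with LPS, 177660 to 183910 with IL-4 and 190510 to 193790 in M0. The part of these markers in the shared changes was not tested.

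Whether members moved equally under both agents was read from LPS minus IL-4, which uses no M0 array. Of the 1418 members above M0, 243 (17.1%) differed between the agents, 180 higher with LPS and 63 lower. Of the 1883 below M0, 317 (16.8%) differed, 74 higher with LPS and 243 lower. Among all kept probes 25.5% differed, 12% higher and 13.5% lower. The rule leaves out probes that move apart under the agents, so a share below the background is built into it. Rises mostly of LPS included Gas7, a cytoskeletal adaptor (6.44-fold with LPS, 1.33-fold with IL-4), and Serping1, the C1 inhibitor (4.01-fold and 1.09-fold), and neither passed with IL-4. Adam8, a metalloprotease, was higher mainly with IL-4 (6.03-fold), and its 1.43-fold value with LPS did not pass.

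Because M0 has no stated time, the vehicle arrays, which were cultured for 24 h with DMSO, were set beside it after all 12 arrays were normalized together, a step chosen after the data were seen. The vehicle arrays belong to the other set of 6, and array set and treatment cannot be told apart. On this scale Slc7a2 averaged 13.52 with LPS, 13.77 with IL-4, 11.92 in vehicle and 9.74 in M0. Arg1 averaged 14.40, 14.95, 13.04 and 11.66 in the same order, and Ccl7 averaged 13.63, 14.13, 13.89 and 11.95. Vehicle cells, given neither agent, thus had all 3 markers above M0, and Ccl7 at about the level of the treated arrays.

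Other members also lay away from M0 in vehicle. Each of the 14 genes with the largest shared rise averaged higher in vehicle than in M0. Of the 14 with the largest shared fall, all but Ifitm6 averaged lower in vehicle than in M0. Hspa1a, for example, averaged 11.43 in vehicle and 8.06 in M0, and Rcbtb2 6.18 and 8.64. AA467197 averaged 12.04 with LPS, 10.71 with IL-4, 12.98 in vehicle and 9.29 in M0. Nos2 averaged 6.91, 5.62, 9.89 and 4.96, and Il10 averaged 9.12, 8.35, 11.15 and 7.47. These 3 were higher in vehicle than with either agent. Sdc2 averaged 5.03, 6.30, 5.23 and 8.06, and Cxcr4 averaged 7.44, 8.25, 7.47 and 9.35. Both were low in vehicle too. Mmp13 averaged 14.32 with LPS, 14.87 with IL-4, 13.54 in vehicle and 13.51 in M0, and Tlr1 had 9.71 in vehicle and 9.68 in M0, so these 2 stood at the M0 level in vehicle. Ifitm6 was higher in vehicle (9.06) than in M0 (8.00), opposite to its fall under the agents. The T and NK cell markers were mixed. Klrd1 averaged 9.64 in vehicle and 9.18 in M0, and Nkg7 10.62 and 10.49, both higher in vehicle. Cd3g averaged 9.94 and 10.2, and Cd27 7.76 and 7.81, both lower in vehicle.

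The arrays of SR3335, which the labels call an inverse agonist of ROR-alpha, and SR1078, called a ROR agonist, were compared with vehicle to describe the members on arrays outside the rule. Of 1389 members above M0 that were kept there, 79 (5.69%) passed as higher with SR3335 and 18 (1.3%) as lower, against 2.79% and 2.54% of all 12918 kept probes. Of 1778 members below M0, 12 (0.675%) passed as higher and 107 (6.02%) as lower. The medians were small, 0.05 and -0.07 log2. These SR3335 calls need all arrays, since no probe passed without any 1 vehicle or SR3335 array, and 208 did without 1 SR1078 array. With SR1078, 20 members above M0 (1.44%) passed as higher and 5 (0.36%) as lower, against 0.828% and 0.224%, and 5 members below M0 passed in each direction (0.281%). No probe passed SR1078 minus vehicle without any 1 of these 6 arrays, or with the replicate number as a block.

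Among the named genes, Slc7a2 was higher with SR3335 than with vehicle by 0.58 log2 (limma, adjusted p = 0.0308), AA467197 by 0.58 (adjusted p = 0.0214) and Hspa1a by 1.06 (adjusted p = 0.0088). Xcl1 and Ncapg2 were lower, with differences of -0.93 (adjusted p = 0.0096) and -1.09 (adjusted p = 0.0116). Ccl12 and Ms4a8a went against their rises under LPS and IL-4, with differences of -0.40 (limma, adjusted p = 0.0479) and -0.49 (adjusted p = 0.0425). Arg1 differed from vehicle by 0.13 with SR3335 (adjusted p = 0.697) and by 0.79 with SR1078 (adjusted p = 0.0913), neither of which passed. Rora, which encodes ROR-alpha, and Klf4 were not members. Rora differed from M0 by 0.29 log2 with LPS and -0.55 with IL-4, neither passing, and Klf4 by 0.02 with LPS and 1.67 with IL-4 (adjusted p = 0.013).

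Different probes of a gene did not always fall on the same side. Of 657 genes with a member as their brightest probe and several kept probes, 213 had all of them on the same side, and 37 genes had member probes on both sides. The named members had 31 other kept probes, of which 24 were on the same side, 7 on neither and none on the opposite side. Centring each array on its median in place of quantile normalization shifted the median of all probes by -0.09 log2 in treated minus M0, and 923 probes then lay above M0 and 2711 below it, against 1418 and 1883. All but 3 of the 103 named members kept their side, the exceptions being Aurka, Ciita and Serping1, which then lay on neither side.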

How the data were processed

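RNA of mouse Kupffer cells was measured on 12 bead arrays in 6 groups of 2. The bead signals are intensity values deposited without normalization, made with GenomeStudio 2011.1 per the submitters' processing notes, and a detection p-value was deposited beside each signal. The log2 values deposited by the authors were used as an alternative, and quantile normalization of the deposited signals gave them to within 0.01. The depth of an array is not a count, and the number of arrays limits precision.

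With limma 3.58.1 in R 4.3.3, background was removed by normexp, its level being taken from the relation of signal to detection p, and an offset of 16 was added. The 6 arrays of LPS, IL-4 and M0 were quantile-normalized among themselves and log2-transformed. A probe was kept if its detection p was below 0.05 on 2 or more of them. A linear model with 1 mean per group (3 residual degrees of freedom) gave moderated tests with Benjamini-Hochberg adjustment over all kept probes. The vehicle, SR3335 and SR1078 arrays were fitted separately in the same way. Symbols came from the platform annotation and RefSeq genes, and 1719 probes were unnamed. The brightest probe stood for a gene. Where a group was undetected on both arrays, a fold is a lower bound, set against the lowest detected signal. The fit was tested on simulated data. The labels link same-numbered arrays by the number alone and do not say whether they share a mouse, preparation or run. Deviations of same-numbered arrays from their group means correlated at 0.11 or less. Such a correlation, with 2 arrays per group, cannot decide whether they were paired, and the main fit took them as unpaired.

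The members, the 39 gene lists and the tests were chosen with earlier results of these data known. Genes were named by a rule, namely the 3 markers, the 14 with the largest smaller-of-both change in each direction among members that passed, up to 4 such genes per list, and Klf4 and Rora. List counts also name other passing genes, and these have no rule. Alternatives varied the background correction, normalization, filter, probe choice, arrays fitted, variance model, array weights and replicate block, and left out each array. Promoters were read in Python 3.11.15 from RefSeq, and figures drawn with matplotlib 3.10.9 and pandas 2.3.3.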

Additional observations from a re-analysis of the deposited data

How the results depend on the processing

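Probes passing treated minus M0 numbered 1225, IL-4 minus M0 891, LPS minus M0 2478 and LPS minus IL-4 3150. Without background correction, and with the authors' deposited log2 values, 2015 probes passed treated minus M0 and 1834 passed IL-4 minus M0. With no filter these were 816 and 502, and with a variance trend 2043 and 1914. With all 12 arrays fitted together 2782 passed treated minus M0, 3991 LPS minus M0, 2551 IL-4 minus M0 and 4776 LPS minus IL-4. With array weights 590 passed IL-4 minus M0. With the replicate number as a block, 844 passed treated minus M0 and 487 passed IL-4 minus M0, and 15 of the 105 named genes no longer passed with the block. The probes above M0 numbered 923 under median centring, 2332 with no filter and 897 in the deposited signals without normalization, an alternative added after the data were seen. Under median centring 30.3% of the probes passing treated minus M0 were higher, against 47.4%. For LPS minus M0 that share was 28.9%, and for LPS minus IL-4 35.6%.

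Leaving out each array in turn gave 7 to 1670 probes for treated minus M0, 683 to 3007 for LPS minus M0, 18 to 1242 for IL-4 minus M0, 1397 to 3223 for LPS minus IL-4, 1688 to 2325 above M0 and 2166 to 2793 below it. The lowest values for comparisons with M0 came without an M0 array. SR3335 minus vehicle had 688 probes, and 1353 without background correction, 1375 with the authors' values, 394 with no filter, 1740 with a variance trend, 225 with the replicate block, and 0 to 208 with an array left out. SR1078 minus vehicle had 136, and 795, 804, 41 and 1277 under the first 4 of these, 479 at a detection p under 0.01, 206 with 1 probe per gene, 0 with the replicate block and 0 with any array left out. The cause of these shifts was not tested, except that leaving out an array lowers the number fitted. Over 1676 values of named genes under the alternatives, 1314 stayed on the same side of the threshold in the same direction, 362 lost the threshold and none reversed. Without either M0 array 101 of the 105 lost it.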
